A study of Mus musculus with 6 samples.

Results

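Small RNA reads from the kidney inner medulla were used to follow miR-9, miR-187 and miR-375, miRNAs known best from brain and pancreatic islets, in mice lacking Dicer1 in AQP2-expressing cells. All entries of the deposited table carrying one of these names, with either arm of the hairpin, were taken. This gave 5 of 1081 entries: mmu-miR-9-5p, mmu-miR-187-3p, mmu-miR-187-5p, mmu-miR-375-3p and mmu-miR-375-5p (written below without the species prefix). mmu-miR-9-3p was not analysed here. The miRNAs were chosen because miR-9 and miR-187 were lower and miR-375 higher in the mutants in these same libraries, so their genotype difference is described below without a test.

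The libraries came from 1-month-old mice, 3 of them controls and 3 DicerAQP2Cre+, and the labels say nothing more of the control genotype. DicerAQP2Cre+ mice lack Dicer1, which encodes the RNase III enzyme that cuts precursor hairpins into mature miRNAs, in cells that express aquaporin-2. Aquaporin-2 lets principal cells of the collecting duct take up water. The RNA came from the whole inner medulla, so cells outside the AQP2 lineage contributed reads in both genotypes. In such bulk RNA, fewer cells of a type and less RNA per cell cannot be told apart. The deposited columns of the mutants are named only by a short form, read here as conditional knockout plus the replicate number, and every direction below rests on that reading.

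Dicer processing releases a duplex of a 5p and a 3p arm from each hairpin, and usually one arm is kept by Argonaute and the other is degraded. The kept arm finds its targets mainly through its seed, bases 2 to 8. miR-9 is a miRNA of neural progenitors and neurons that acts on the neuronal gene repressor REST and on Hes1. miR-375 is a major miRNA of islets and other neuroendocrine cells and restrains insulin secretion. miR-187 has been described in islets, where it lowers insulin release.

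Of the RefSeq records (GRCm38.p6), those of a chromosome were set aside and not used here. The records used held a mature sequence for 2 of the 5 entries. The sequences of miR-187-3p, miR-187-5p and miR-375-3p were not examined. A miRNA with the same seed could share targets, so miR-9-5p and miR-375-5p are shown with the other arm of the miR-9 hairpins. Capitals mark the seed.
miR-9-5p: uCUUUGGUuaucuagcuguauga
miR-9-3p: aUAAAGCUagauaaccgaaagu
miR-375-5p: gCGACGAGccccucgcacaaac
Of the 1081 entries 919 had a mature sequence in the records used. No other entry among these 919 shared bases 2 to 8, or bases 2 to 7, with any of these 3 sequences. Entries without a sequence in those records were not compared. The entry closest to miR-9-5p in sequence, miR-363-3p, differed from it at 8 bases in the best ungapped alignment.

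The mature miR-9 sequence is encoded by 3 hairpins, shown here because a read of miR-9-5p cannot be assigned to any one of them. Capitals mark the 5p and 3p arms, which are identical in all 3.
Mir9-1: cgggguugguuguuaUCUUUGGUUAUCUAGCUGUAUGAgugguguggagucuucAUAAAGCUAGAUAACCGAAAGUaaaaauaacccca
Mir9-2: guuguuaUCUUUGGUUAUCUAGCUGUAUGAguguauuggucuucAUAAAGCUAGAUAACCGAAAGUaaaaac
Mir9-3: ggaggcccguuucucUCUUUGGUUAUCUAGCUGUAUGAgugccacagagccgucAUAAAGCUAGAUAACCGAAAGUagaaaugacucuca
Between the arms lie 16 bases in Mir9-1 and Mir9-3 and 14 in Mir9-2. In GRCm38.p6 Mir9-1 lies at chr3:88215598-88215686 on the plus strand, in an intron of the lincRNA Gm3764. An unnamed miRNA gene, Gm25641, is annotated on the opposite strand of the same place. Mir9-2 lies at chr13:83738814-83738885 on the plus strand, overlapping an exon of the lincRNA C130071C03Rik, and Mir9-3 at chr7:79505264-79505353 on the plus strand, in an intron of Mir9-3hg. miR-375 has a single hairpin, in which capitals mark miR-375-5p.
Mir375: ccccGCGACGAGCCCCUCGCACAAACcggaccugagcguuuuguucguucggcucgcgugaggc
Mir375 lies at chr1:74900658-74900721 on the minus strand of GRCm38.p6, between genes, 1350 bases from Cfap65 and 7515 bases from Cryba2. The submitters' processing notes name another build (mm9), so these positions come from the annotation and not from the data.

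Values below are normalized reads, that is, reads per mature miRNA divided by the size factor of the library. The 6 libraries held 2934851 to 7614853 miRNA reads, with DicerAQP2Cre+ replicate 2 the shallowest. DicerAQP2Cre+ replicate 3 stood apart from the others on the second principal component (score -12.5, 23.1% of the variance). Of the 461 entries with a mean of at least 5, limma called 4.99% lower and 3.47% higher in the mutants at a Benjamini-Hochberg adjusted p under 0.05. miR-9-5p, miR-187-3p, miR-187-5p and miR-375-3p passed that filter, with means of 634, 269, 51.6 and 721 over the 6 libraries. miR-375-5p did not pass it.

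In control replicates 1 to 3, miR-9-5p had 955, 977 and 772 normalized reads. DicerAQP2Cre+ replicates 1 to 3 had 320, 412 and 369. All mutant libraries were below all controls, and the lowest control was still 1.88 times the highest mutant. The means were 902 ± 112 and 367 ± 46.0 (SD, n = 3), 2.46-fold lower in the mutants (log2 fold change -1.30 ± 0.22, SE, on log2 of value + 1). Before scaling, the counts were 798 to 1243 reads in controls and 210 to 432 in mutants. Among the 461 entries, 20 had a lower log2 fold change.

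miR-187-3p, the more abundant arm of its hairpin, had 395, 405 and 339 normalized reads in controls and 139, 190 and 149 in DicerAQP2Cre+ libraries. The genotypes did not overlap here either, and DicerAQP2Cre+ replicate 2 was the highest mutant for miR-187-3p as it was for miR-9-5p. Its means were 379 ± 35.6 and 159 ± 27.0 (SD, n = 3), 2.38-fold lower. The log2 fold change was -1.25 ± 0.23 (SE).

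miR-187-5p, the minor arm, had 87.7, 60.5 and 59.0 normalized reads in controls and 39.9, 21.6 and 40.9 in the mutants. Both arms were therefore lower in every mutant library than in any control, although DicerAQP2Cre+ replicate 2 was the lowest library for the 5p arm and the highest mutant for the 3p arm. That value rests on 11 reads. Means were 69.1 ± 16.1 and 34.1 ± 10.9 (SD, n = 3), 2.02-fold lower. The log2 fold change was -1.03 ± 0.33 (SE).

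The 5p arm made up 18.2, 13.0 and 14.8% of miR-187 reads in control replicates 1 to 3. In the mutants it made up 22.3, 10.2 and 21.5%. These shares overlapped between genotypes, with means of 15.3 ± 2.62% and 18.0 ± 6.78% (SD, n = 3). The exact 95% binomial interval was 5.20 to 17.5% in DicerAQP2Cre+ replicate 2 and 17.2 to 28.1% in DicerAQP2Cre+ replicate 1. Since reads copied by PCR are not separate molecules, such intervals show the error of counting and no more.

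miR-375-3p went the other way, with 589, 549 and 417 normalized reads in controls and 882, 1009 and 879 in DicerAQP2Cre+ libraries. All mutants were above all controls, the lowest mutant at 1.49 times the highest control. The means were 518 ± 89.9 and 923 ± 74.5 (SD, n = 3), a ratio of 1.78, with a log2 fold change of 0.84 ± 0.22 (SE). Among the 461 entries, 54 had a higher log2 fold change. miR-375-3p therefore lay less far out in its direction than miR-9-5p and miR-187-3p did in theirs.

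miR-375-5p, the passenger arm, had 1 read, in DicerAQP2Cre+ replicate 2, and 0 in each of the other 5 libraries. A count of 0 allows up to 3 reads, which is a share of 0.252 to 0.696% of miR-375 reads in those libraries. The 1 read made up 0.194% in its library (exact 95% binomial interval 0.00491 to 1.08%). No genotype difference in the 5p arm was detectable at this depth. In all 6 libraries nearly all miR-375 reads came from the 3p arm, whereas miR-187 kept a measurable share of both arms.

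**Figure D1:**
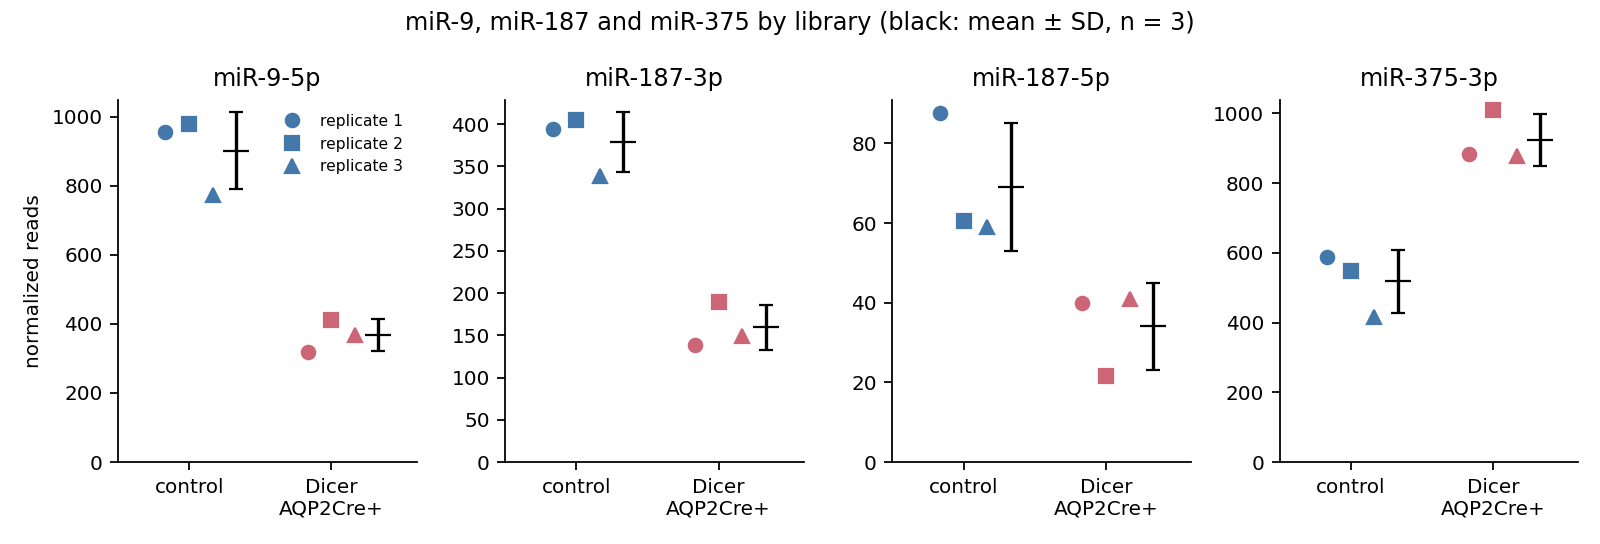
Normalized reads (linear axis from 0) of miR-9-5p, miR-187-3p, miR-187-5p and miR-375-3p in each of the 3 control (blue) and 3 DicerAQP2Cre+ (red) libraries, symbols giving the replicate number and black marks the mean ± SD. The red points lie below all blue points for miR-9-5p and both miR-187 arms, and above them for miR-375-3p.

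Of these 4 entries, 3 were lower and 1 higher in the mutants with no overlap between genotypes. Over all 461 tested entries 18.0% did not overlap in the lower direction and 15.6% in the higher. The entries were chosen on this contrast, so nothing is read from their count. Without DicerAQP2Cre+ replicate 3, the library that stood apart, the log2 fold changes were -1.30 for miR-9-5p, -1.21 for miR-187-3p, -1.18 for miR-187-5p and 0.88 for miR-375-3p.

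Scaling bears on the size of these differences because miRNA totals differ in composition. Per 1000000 miRNA reads of a library, miR-9-5p took 162 to 200 in controls and 56.7 to 71.6 in mutants. On the same scale miR-375-3p took 87.5 to 113 in controls and 151 to 175 in mutants, still without overlap. With libraries set to equal totals, the log2 fold changes were -1.51 for miR-9-5p, -1.47 for miR-187-3p, -1.23 for miR-187-5p and 0.63 for miR-375-3p. That scaling moved the median of all tested entries from -0.01 to -0.21, a shift of about the same size.

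**Figure D2:**
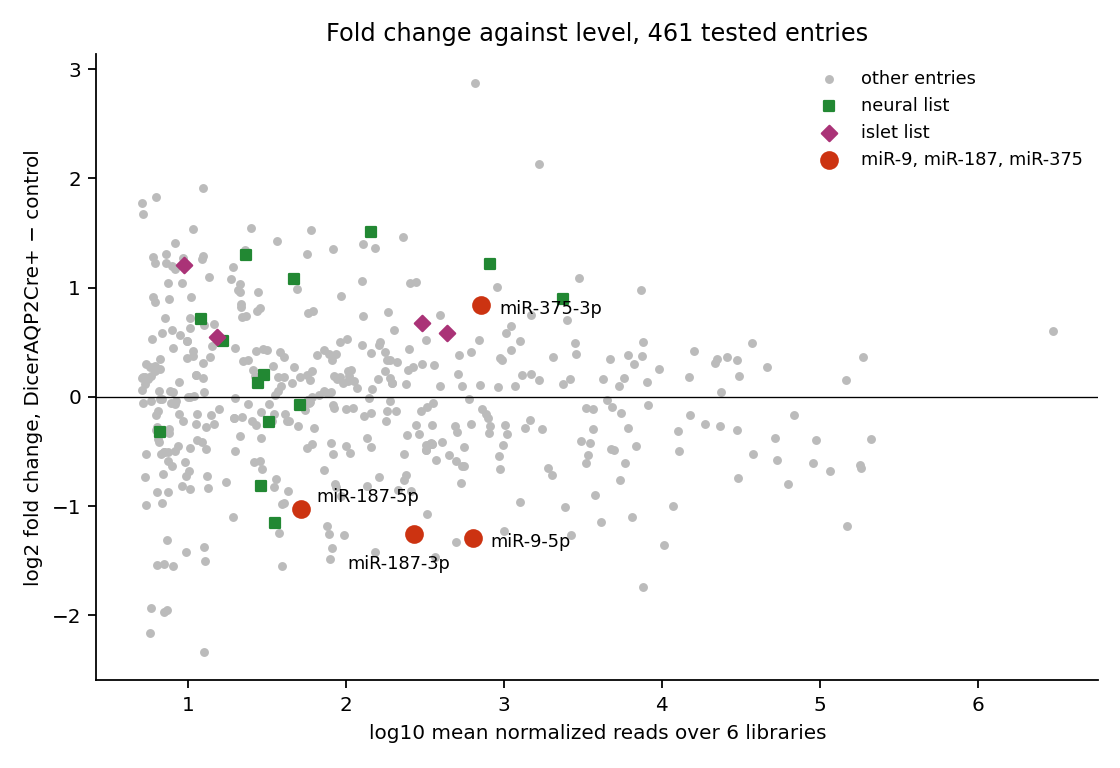
Log2 fold change (DicerAQP2Cre+ minus control) against log10 mean normalized reads for the 461 tested entries, with miR-9-5p, both miR-187 arms and miR-375-3p in red, the neural list as green squares and the islet list as purple diamonds. miR-375-3p at 0.84 lies above 0 beside islet entries, while miR-9-5p at -1.30 and miR-187-3p at -1.25 lie near the lower edge of entries of like abundance.

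Ratios within a library do not depend on the size factor. In controls miR-9-5p had 1.62, 1.78 and 1.85 times the reads of miR-375-3p. In the DicerAQP2Cre+ libraries it had 0.362, 0.408 and 0.420 times as many, so the more abundant of the pair was miR-9-5p in each control and miR-375-3p in each mutant. On the log2 scale the ratio went from 0.81 ± 0.10 to -1.34 ± 0.11 (SD, n = 3). The ratio of miR-187-3p to miR-375-3p likewise went from 0.740 ± 0.0712 to 0.172 ± 0.0154 (SD, n = 3). Both ratios combine values used to choose the miRNAs and are descriptions.

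miR-9-5p and miR-187-3p, in contrast, kept a near constant proportion to each other. The ratio of miR-9-5p to miR-187-3p was 2.42, 2.41 and 2.28 in controls and 2.30, 2.16 and 2.47 in mutants. The genotypes overlapped, with means of 2.37 ± 0.0794 and 2.31 ± 0.154 (SD, n = 3). The exact 95% binomial intervals of the single libraries were as wide as 1.69 to 2.78 in DicerAQP2Cre+ replicate 2 and as narrow as 2.18 to 2.68 in control replicate 2. The intervals of control replicate 3 and of the 3 mutants held the ratios of all 6 libraries, and those of control replicates 1 and 2 held all but the 2.16 of DicerAQP2Cre+ replicate 2. Both were chosen for being lower in the mutants, which the genotype part of this proportion reflects.

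**Figure D3:**
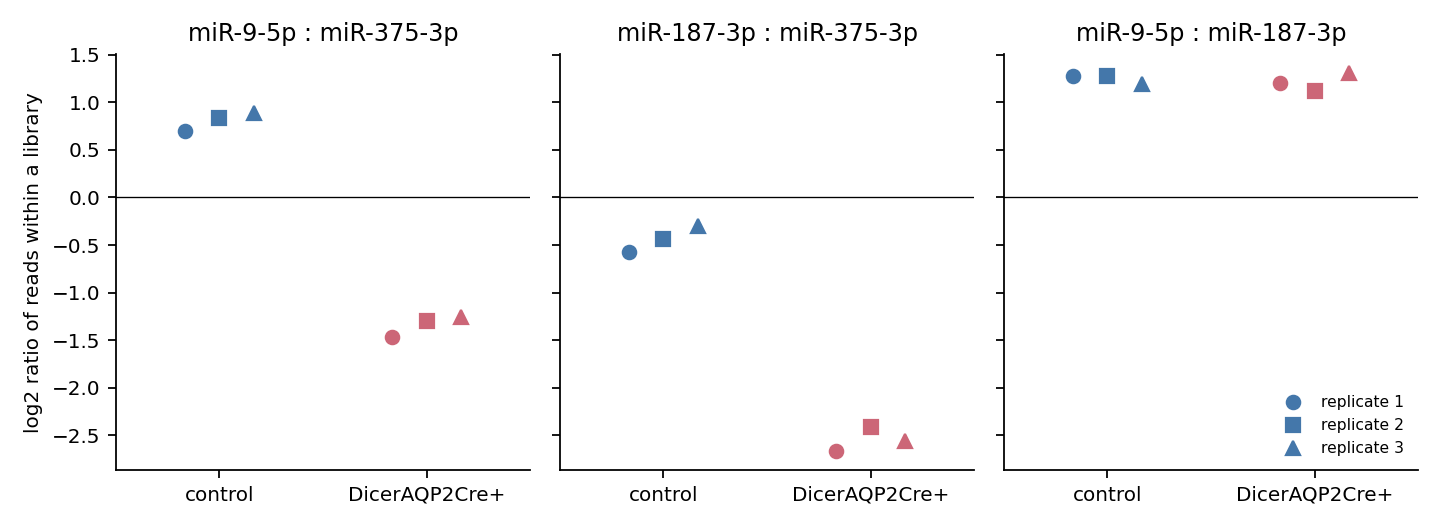
Log2 ratio of reads within each library for miR-9-5p to miR-375-3p, miR-187-3p to miR-375-3p and miR-9-5p to miR-187-3p, in controls (blue) and DicerAQP2Cre+ libraries (red), symbols giving the replicate number. The first ratio goes from a mean of 0.81 to -1.34, while the third lies between 1.11 and 1.31 in all 6 libraries.

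Each read of a small RNA library covers a whole mature miRNA, so levels need no length correction, although adapter ligation favours some sequences over others. In controls the order of normalized reads was miR-9-5p, miR-375-3p, miR-187-3p, miR-187-5p and miR-375-5p. In mutants miR-375-3p came first, followed by miR-9-5p and the rest in the same order. No neighbours in either order overlapped over the 3 libraries of a genotype. By rank within a library, miR-9-5p stood between 94 and 106 in controls and between 125 and 144 in mutants. miR-375-3p stood between 116 and 132 in controls and between 97 and 101 in mutants. miR-187-3p stood between 135 and 143 in controls and between 175 and 196 in mutants. For comparison, 641 to 829 entries per library had at least 1 read. Each of these 3 entries had 97 reads or more in every library.

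Other neural miRNAs were found on both sides of 0. The neural list held 23 entries of 15 named miRNAs, of which 14 were tested. limma called 2 higher and 0 lower, beside 3.47% and 4.99% of all entries. Before adjustment, at p under 0.05, it had 5 higher and 1 lower, beside 13.0% and 15.0% of all entries. edgeR called 2 higher and 0 lower, beside 4.12% and 4.99% of all entries, and DESeq2 4 and 1, beside 6.29% and 6.72%. Of the 14, 9 had a log2 fold change above 0, as had 228 of all 461, and the median was 0.36 against -0.01 over all tested entries. Those called were miR-132-3p and its cluster partner miR-212-3p, which CREB induces in neurons.

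miR-132-3p had 532, 432 and 486 normalized reads in controls and 1394, 1303 and 775 in mutants. It rose by 1.22 ± 0.26 on the log2 scale (SE, limma adjusted p = 0.0164), and the genotypes did not overlap. miR-212-3p had 79.2, 49.5 and 92.9 in controls and 272, 235 and 134 in mutants, and rose by 1.50 ± 0.34 (limma adjusted p = 0.0174). In both, DicerAQP2Cre+ replicate 3 was the lowest mutant. miR-383-5p, the most abundant of the list, had 2599, 1630 and 1000 in controls against 2981, 3112 and 2936 in mutants. It did not pass (0.89 ± 0.31, limma adjusted p = 0.0963). It was called without control replicate 1, the highest control (adjusted p = 0.0435), without DicerAQP2Cre+ replicate 3 (0.0390) and with no filter (0.0271), and its log2 fold change was 0.55 without control replicate 3 (adjusted p = 0.285). In the other direction lay both tested arms of miR-218, a miRNA of motor neurons, named here after their values were seen. miR-218-1-3p had 40.8, 57.4 and 47.4 normalized reads in controls and 29.6, 23.5 and 13.3 in mutants, with no overlap, and did not pass (-1.15 ± 0.35, limma adjusted p = 0.0701). miR-218-5p overlapped between genotypes (-0.81 ± 0.43, adjusted p = 0.240).

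The calls in the neural list depended on single libraries. Higher calls numbered 0 without control replicate 2, without control replicate 3 or without DicerAQP2Cre+ replicate 2, 1 without DicerAQP2Cre+ replicate 1, and 5 without DicerAQP2Cre+ replicate 3. Without control replicate 1 there were again 2, miR-132-3p and miR-383-5p. miR-212-3p lost its call without any one control or without DicerAQP2Cre+ replicate 1 or 2 (limma adjusted p = 0.0543 to 0.105) and kept it without DicerAQP2Cre+ replicate 3.

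The defining neuronal miRNA, miR-124-3p, was at or near 0, with 0.769 normalized reads in control replicate 1 and 0 in the other 5 libraries. The controls had 772 to 977 normalized reads of miR-9-5p. Which cells those reads came from was not tested.

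No tested entry of the islet list passed in limma. The list held 7 entries of 6 named miRNAs, of which 4 were tested. All 4 had a log2 fold change above 0, as had 228 of all 461, and their median was 0.63 against -0.01. The 4 include both arms of the miR-483 hairpin, which had 2.90 to 22.5 normalized reads per library. limma called 0 higher and 0 lower, beside 3.47% and 4.99% of all entries. Before adjustment it had 3 higher and 0 lower, beside 13.0% and 15.0% of all entries. edgeR called 0 higher and 0 lower, beside 4.12% and 4.99% of all entries, and DESeq2 1 and 0, beside 6.29% and 6.72%. With 4 tested entries, such counts say little of the list. Of the 3 untested entries, miR-211-5p, named after its values were seen, had 1.57 to 2.31 normalized reads in controls and 0 to 1.02 in mutants, all at or under the limit of a count of 0. The only miR-7a entry, miR-7a-1-3p, also named afterwards, had 0 to 3.87 in controls and 0.740 to 5.88 in mutants. The 5p arm of miR-7a was not examined, so its level is not known from these values. miR-184-3p, which has been tied to Argonaute2 in islets, had 235, 198 and 272 normalized reads in controls and 387, 376 and 355 in mutants. The genotypes did not overlap, but the log2 fold change of 0.67 ± 0.22 did not pass in limma (adjusted p = 0.0915). DESeq2 called it (adjusted p = 0.0256), as did limma without DicerAQP2Cre+ replicate 3 (adjusted p = 0.0326). miR-204-5p, also a miRNA of kidney epithelium, had 378, 347 and 312 in controls and 465, 462 and 646 in mutants (0.59 ± 0.23, limma adjusted p = 0.130). Among exocrine pancreas miRNAs, miR-217-5p had 0.740 normalized reads in DicerAQP2Cre+ replicate 1 and 0 in the other 5 libraries.

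**Figure D4:**
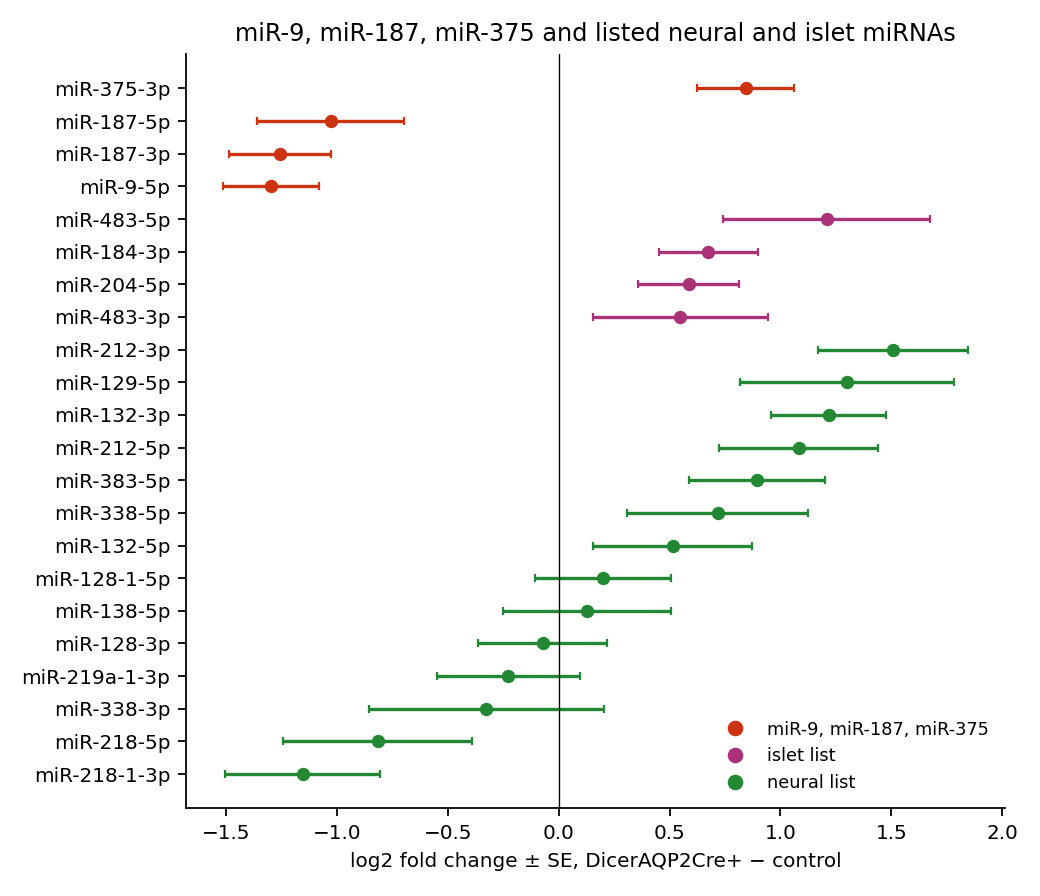
Log2 fold change ± SE (DicerAQP2Cre+ minus control, limma) of miR-9-5p, both miR-187 arms and miR-375-3p (red) and of the tested entries of the islet (purple) and neural (green) lists. All 4 islet entries lie above 0 with a median of 0.63, and the neural entries lie on both sides of 0, with miR-212-3p the highest at 1.50.

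The entries most like each miRNA were found by Pearson correlation of log2(value + 1) over the 6 libraries among 457 other tested entries. The points share the 2 genotypes and the size factors, and no p is given. For miR-9-5p they were miR-200a-3p (r = 0.989), miR-30e-5p (0.979) and miR-30b-5p (0.976). For miR-187-3p they were miR-200a-3p (0.990), miR-30e-5p (0.978) and miR-140-3p (0.975), so the 2 closest entries were the same as for miR-9-5p. miR-200a-3p belongs to a family of epithelial miRNAs and miR-30e-5p to one abundant in kidney epithelium.

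miR-200a-3p had 1887, 1636 and 1526 normalized reads in controls and 766, 974 and 849 in mutants. DicerAQP2Cre+ replicate 1 was the lowest and replicate 2 the highest mutant, as for miR-9-5p and miR-187-3p. Because miR-200a-3p was picked for its correlation with both, this shared order partly follows from the choice, and nothing is read from it. miR-200a-3p fell by 0.96 ± 0.20 on the log2 scale (limma adjusted p = 0.0164), less than the -1.30 of miR-9-5p. For miR-187-5p the closest entries were let-7e-3p (r = 0.994), miR-361-3p (0.988) and miR-31-3p (0.975), so the closest entries of the 5p arm were not those of the 3p arm. limma called none of them (adjusted p = 0.234, 0.199 and 0.235). miR-31-3p had a mean of only 5.43 normalized reads, and its 1.96 in DicerAQP2Cre+ replicate 2 was 1 read. miR-187-5p had 11 reads in that library, so counting error may shape this contrast between the arms.

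For miR-375-3p they were miR-181a-5p (r = 0.986), miR-341-3p (0.969) and miR-676-3p (0.963). miR-181a-5p, the most abundant miRNA of these libraries, had 2754247, 2332125 and 2064259 normalized reads in controls and 3598297, 3842608 and 3387683 in mutants. DicerAQP2Cre+ replicate 2 was the highest and control replicate 3 the lowest library, as for miR-375-3p. This match, too, partly follows from picking miR-181a-5p by its correlation, and nothing is read from it. The log2 fold change of miR-181a-5p was 0.61 ± 0.18 (limma adjusted p = 0.0641) and did not pass. miR-676-3p rose by 0.98 ± 0.19 (limma adjusted p = 0.0148), and miR-341-3p by 1.54 ± 0.32 (adjusted p = 0.0162).

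miRNA markers of some cell types in the tissue also differed between genotypes, and those of others did not. The miR-200 family marks collecting duct and other renal epithelium. Of its 8 tested entries limma called 5 lower, beside 4.99% of all entries, with a median log2 fold change of -0.93. The sum of all 9 of its entries was 17621 to 18745 normalized reads in controls and 7648 to 11584 in mutants. Of 8 stromal and smooth muscle entries limma called 2 higher, beside 3.47% of all entries, with a median log2 fold change of 0.62. Their sums were 23398 to 24722 in controls and 27750 to 40286 in mutants. Sums overlapped between genotypes for urothelial, endothelial, leukocyte and erythroid miRNAs. Those of cortical tubule miRNAs did not, at 1306 to 1368 and 646 to 1145, and limma called 1 of 3 tested entries lower. Their part in the levels of miR-9-5p, miR-187 and miR-375-3p was not tested.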

How the data were processed

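In the deposited signal table the authors give reads of each mature miRNA divided by a size factor of the library. The unit was worked out from the numbers, since dividing a library by its smallest value above 0 gave whole reads for 100% of them (tolerance 0.01 read). Per the submitters' processing notes, FastQC 0.11.3, DESeq2 and the build mm9 were used. The sources used here do not name the aligner, the counter, the strand setting or the miRNA release. Small RNA libraries were made with the TruSeq protocol, per the labels' protocols, from separate mice.

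The fit was limma 3.58.1 (R 4.3.3) with a trend, on log2(value + 1), over the 461 entries with a mean of at least 5 in all 6 libraries, leaving out 620. Tests were two-sided, with Benjamini-Hochberg adjustment over all 461. On simulated data the fit recovered 60 of 100 entries with an absolute log2 fold change of 1 and 96 of 100 with 2. It called 6 of 261 unchanged entries. An entry that did not pass may therefore still differ. Fold changes on this scale understate those of low entries. edgeR 4.0.16 and DESeq2 1.42.0 on recovered reads, other filters, scalings and pseudocounts, a replicate block and leaving out each library were alternatives. The 4 residual degrees of freedom were extended by 6.44 from the empirical Bayes step.

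The miRNAs and lists were chosen with earlier results of these data known. Named were all entries of the 3 miRNAs, list entries that passed, the 2 most abundant of each list, entries sharing a seed, and the 3 entries most correlated with each. Small RNA reads do not cover the Dicer1 transcript, and its loss was not checked. Sequences came from RefSeq, with the records of a chromosome left out, and gene overlaps from GENCODE M21, both GRCm38.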

Additional observations from a re-analysis of the deposited data

How the results depend on the processing

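No log2 fold change of miR-9-5p, miR-187-3p, miR-187-5p or miR-375-3p changed sign in the 15 alternatives, with ranges of -1.51 to -1.20, -1.47 to -1.16, -1.23 to -0.74 and 0.63 to 0.94. Values moved by more than the replicate SD with libraries set to equal totals, to -1.51 for miR-9-5p, -1.47 for miR-187-3p and 0.63 for miR-375-3p, a scaling that moved the median of all entries to -0.21. Leaving out 1 library gave -1.40 to -1.20, -1.39 to -1.16, -1.18 to -0.74 and 0.70 to 0.94. Over all entries, 23 lower and 16 higher calls became 48 lower with equal totals, 11 and 7 without a trend, and 29 higher with DESeq2. Without 1 library they ranged from 0 to 62 lower and 0 to 43 higher; limma called 0 without control replicate 2 (83 at an unadjusted p under 0.05) and without control replicate 3 (96), with fewer samples in the fit. In the neural list limma's 2 higher calls became 4 with DESeq2 and 0 without a trend, and its 0 lower calls became 1 with equal totals and 1 with DESeq2. Without 1 library it had 0 to 5 higher and 0 to 1 lower calls. The islet list had 1 higher call with DESeq2 and 0 to 1 without 1 library. With a replicate block the neural list had 1 higher call; same-numbered libraries had correlations of deviations of -0.06, 0.01 and 0.06, so the numbers were not taken to pair the mice. Where a call changed, the cause was not tested. Depth limits miR-375-5p and, with 11 to 54 reads per mutant, miR-187-5p.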
